A study of Rattus norvegicus with 3 samples.

Results

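Vimentin and the alpha and beta tubulins were followed through 3 cell fractions of serum-deprived rat fibroblasts, Rat1_Myc against Rat1_vector. Members were taken by a name rule that uses no measured value, though it was chosen with earlier results of these data known. It takes every entry whose Swiss-Prot name without its species suffix is VIME, or TBA or TBB followed by 1 letter or digit, in any species. The rule found 12 of the 1053 protein entries in the tables, 7 of alpha tubulin, 3 of beta tubulin and 2 of vimentin. By their suffix 5 were human, 5 mouse, 2 from the plant Arabidopsis (ARATH) and 0 rat, so these peptides of rat cells are listed under entries of other species. The soluble fraction held 5 members among 542 entries with an abundance ratio, the chromatin-enriched fraction 4 among 364, and the crude mitochondrial fraction 7 among 201. In all, 16 pairs of an entry and a fraction had a ratio, and no member entry lacked one.

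Vimentin is the intermediate filament protein typical of fibroblasts and other mesenchymal cells, where its filaments form a cage around the nucleus and withstand detergent and salt extraction. Alpha and beta tubulin pair as a dimer, the dimers assemble into microtubules, and a pool of free dimer stays in the cytosol. Both tubulins exist as several closely similar isotypes, and newly made chains need the TCP-1 chaperonin to fold.

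Rat1 is an established rat fibroblast line. Rat1_Myc fibroblasts were compared with Rat1_vector fibroblasts, both without serum for 12 h, and whether either was a clone or a pool is not given in the sources used here. Cysteines were tagged with the isotope-coded affinity tag (ICAT), light on vector protein and heavy on Myc protein, at 2.5 mg per label for the soluble and chromatin-enriched fractions and 250 ug per label for the mitochondrial fraction. Each fraction was mixed and measured once, and the labels were not swapped, so no ratio has a replicate, each ± is the SD that the authors deposited, and an effect of the label cannot be told apart from one of the cells.

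A ratio is the abundance in Rat1_Myc over that in Rat1_vector on a linear scale. Equal amounts of protein were labelled within a fraction, so a change in a protein's amount in the cell and a shift of it between fractions cannot be told apart. An entry was counted as higher or lower when its protein ratio was at least 1.5-fold from 1 and more than 2 deposited errors from 1 on a log scale. Most proteins sat above 1: the median ratio was 1.34 in the soluble, 1.24 in the chromatin-enriched and 1.15 in the mitochondrial fraction. The fibroblast label was checked only by whether vimentin, collagen I and fibronectin were detected, since the size of a ratio does not bear on it. All 3 had a ratio in the chromatin-enriched fraction, where the first chain of collagen I (CA11_MOUSE) stood at 1.05 ± 0.085. Its other chain had 1.00 ± 0.122 (CA21_MOUSE) and 1.59 ± 1.05 (CA21_HUMAN). Fibronectin there was lower under its human entry, at 0.484 ± 0.163 (FINC_HUMAN), and stood at 0.897 ± 0.106 under its mouse entry (FINC_MOUSE), which in the mitochondrial fraction had 0.698 ± 0.175. Vimentin was not among the 620 entries of the soluble table.

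The members rested on 213 peptide lines, of which 175 held a measured ratio and 38, or 17.8%, held one of 3 codes for undetected peaks and were not measured. Codes took 24.8% of member lines in the soluble fraction, 11.3% in the chromatin-enriched and 5.13% in the mitochondrial fraction, against 17.9%, 12.1% and 4.18% of all lines there. Lines of an entry with the same ratio and SD (within 0.002) were counted as 1 measurement, which left 152. A question mark, which the authors' legend does not define, stood on 7 of the measured member lines.

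These lines came from 20 peptides, 6 of alpha tubulin, 8 of beta tubulin and 6 of vimentin, and each peptide held 1 cysteine except a 29-residue beta peptide with 2. Several peptides of different isotypes differed at only 1 or 2 residues. The 24-residue alpha peptide of TBA2_HUMAN and TBA1_MOUSE becomes that of TBA6_HUMAN and TBA6_MOUSE by S7T, with positions counted from 1 at the first residue of the peptide and the first-named entry's residue written first. The 13-residue alpha peptide of TBA4_HUMAN becomes that of TBA2_HUMAN and TBA1_ARATH by S1T, and that of TBA3_ARATH by S1T with I2V, which leaves the mass equal. The 19-residue beta peptide of TBB3_MOUSE and TBB5_MOUSE differs from that of TBB2_HUMAN by I7L, and their 17-residue beta peptides, of TBB3_MOUSE and TBB2_HUMAN, differ by I5L. Isoleucine and leucine have the same mass, so both beta pairs are of equal mass as well.

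In the soluble fraction the deposited protein ratios of the beta tubulins were above 1 and those of the alpha tubulins below it. Of the alpha entries, however, TBA4_HUMAN lay only 0.0323 and TBA2_HUMAN only 0.323 deposited errors from 1. TBB2 (TBB2_HUMAN) was higher in Rat1_Myc, at 1.69 ± 0.268 over 4 peptides, and it was the only soluble member of 5 to pass the rule. By comparison 38.7% of all soluble entries passed, 30.6% higher and 8.12% lower. TBB3_MOUSE had a ratio of 1.41 ± 0.190, also over 4 peptides. The alpha entries read 0.992 ± 0.247 for TBA4_HUMAN, 0.846 ± 0.438 for TBA2_HUMAN and 0.164 ± 0.210 for TBA6_HUMAN, and none of the 3 passed. Both beta entries lay above the fraction median of 1.34 and 0 of the 3 alpha entries did. The ranges, 0.164 to 0.992 for alpha and 1.41 to 1.69 for beta, did not overlap. Yet 0 of the 6 alpha and beta pairs differed by 1.5-fold with more than 2 combined errors, since they were 0.952 to 1.81 combined errors apart. The share of all soluble entry pairs that would differ was not computed, nor was the share of like sets of entries whose ranges would not overlap. The median over the 5 soluble members was 0.992, beside 1.34 over all soluble entries.

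**Figure D1:**
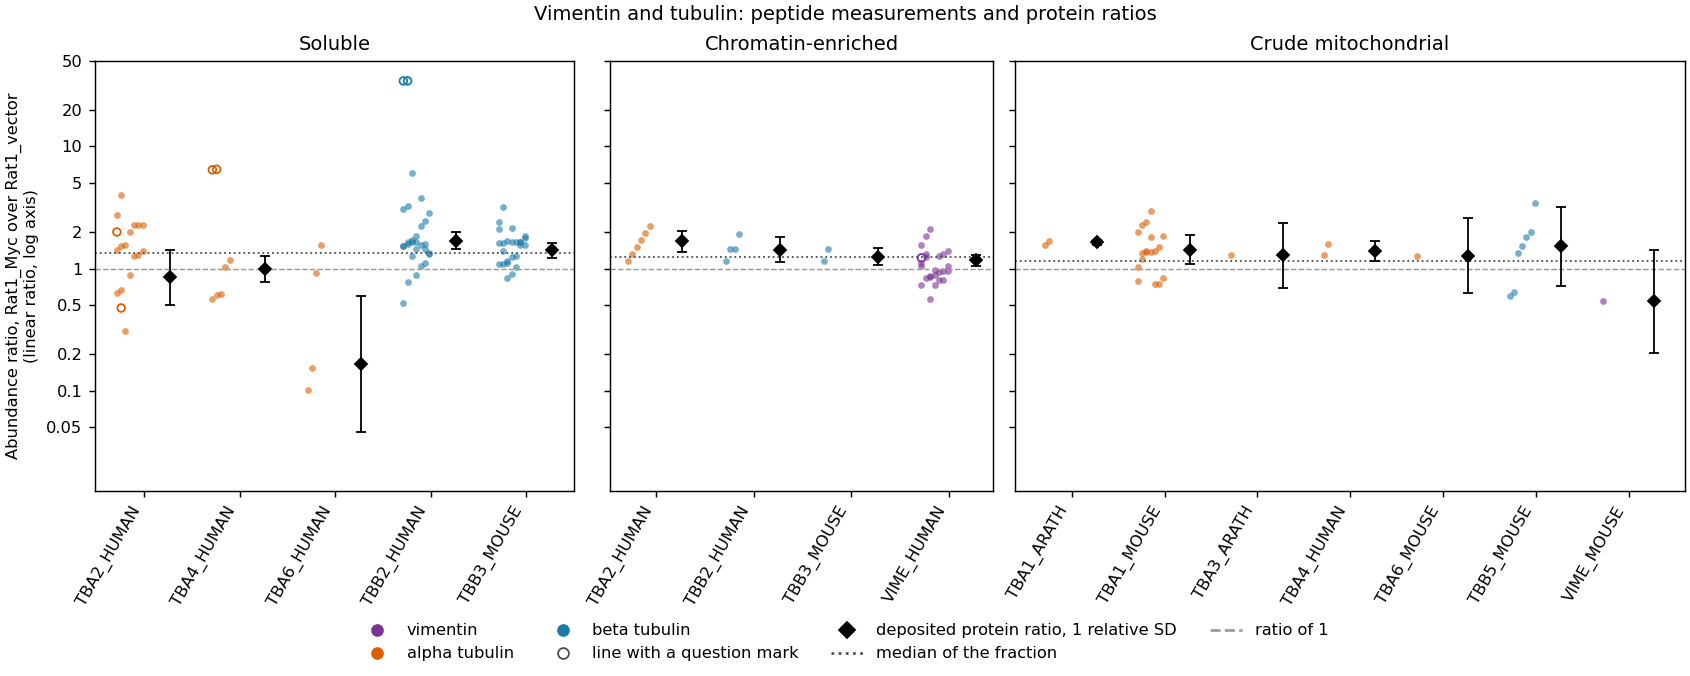
Peptide measurements (dots, open where the line carries a question mark) and deposited protein ratios (diamonds, bars of 1 relative SD) of each member entry in the 3 fractions, as the ratio of Rat1_Myc over Rat1_vector on a log axis; dashed line, ratio of 1, dotted line, median of all entries of the fraction. The soluble alpha entries lie at 0.164 to 0.992 and the soluble beta entries at 1.41 and 1.69, while 6 of 7 mitochondrial members lie above 1.

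The peptide measurements behind the soluble alpha entries were scattered on both sides of 1. TBA6_HUMAN had 4 measurements of 1 peptide, 0.101 ± 0.008, 0.152 ± 0.089, 0.911 ± 0.358 and 1.57 ± 0.082, a range of 15.5-fold. Its protein ratio of 0.164 ranked 3 from the lowest among 542 soluble entries, lay between the second and the third measurement, and carried an error larger than itself. The median of those 4 measurements was 0.532. TBA4_HUMAN, which rested on the 13-residue peptide alone, had 7 measurements: 0.560, 0.612, 0.623, 1.03 and 1.19, and 6.43 and 6.49 on lines with a question mark. A further 7 of its 14 lines were coded, so as many lines went unmeasured as were measured. Without the marked lines its median was 0.623, beside 1.03 with them.

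For TBA2_HUMAN the protein ratio and the middle of the measurements lay on opposite sides of 1. Its 18 soluble measurements ran from 0.305 to 4.02 with a median of 1.47, and 13 of them were above 1, while the deposited protein ratio was 0.846. The split followed the peptide in part. The 24-residue peptide had a median of 1.54 over 15 measurements, and the 13-residue peptide gave 0.628 ± 0.009, 0.665 ± 0.005 and, on a line with a question mark, 1.99 ± 0.016. The 13-residue values carried the smaller deposited SDs. How far these SDs set the protein ratio was not tested.

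The soluble beta entries were measured most often and gave like medians, in part on peptides of equal mass, with 2 measurements listed under both. TBB3_MOUSE had 25 measurements from 0.829 to 3.16 with a median of 1.604, and 23 were above 1. TBB2_HUMAN had 29 from 0.517 to 34.4 with a median of 1.58, and 26 were above 1. The 2 highest, 34.41 and 34.43, both lay on lines of the 25-residue peptide with a question mark, and the highest unmarked value was 6.06. Without marked lines the TBB2_HUMAN median stayed at 1.58. By peptide, the medians of TBB2_HUMAN were 1.57 for 17 residues, 1.54 for 19, 1.44 for the single value at 22 and 1.85 for 25. Those of TBB3_MOUSE were 1.56 for 9 residues, 1.28 for 17, 1.65 for 19 and 1.40 for the single value at 29. All 8 of these peptide medians lay above 1. Over the soluble members as families, 47 of 52 beta and 18 of 29 alpha measurements were above 1, with medians of 1.58 and 1.28 beside 1.46 over all soluble measurements.

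In the chromatin-enriched fraction the 3 tubulins lay between 1.246 and 1.67 and vimentin close to 1. TBA2_HUMAN was higher in Rat1_Myc, at 1.67 ± 0.334, and was the only one of 4 members to pass, where 27.7% of all entries passed, 20.3% higher and 7.42% lower. All 6 of its measurements, 1.14, 1.32, 1.497, 1.70, 1.95 and 2.22, were above 1, and they came from the 24-residue peptide alone. TBB2_HUMAN had a ratio of 1.43 ± 0.331 and TBB3_MOUSE one of 1.246 ± 0.202. The 3 tubulins were above the fraction median of 1.24, TBB3_MOUSE by 1.00-fold, and vimentin was below it. The median of the 4 members was 1.34.

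Vimentin (VIME) in the chromatin-enriched fraction had a ratio of 1.16 ± 0.118 over 6 peptides (VIME_HUMAN) and did not pass the rule. It was the most often measured member there, with 38 lines and 25 distinct measurements. These ran from 0.560 to 2.11 with a median of 0.981, and 12 were above 1 and 13 below. The median of all measurements in the fraction was 1.24, and 8 of the 25 vimentin values exceeded the fraction's median protein ratio. The protein ratio and the median measurement of vimentin thus both lay close to 1. The difference from TBA2_HUMAN, 1.44-fold, was 1.62 combined errors, and that from the beta entries was 1.07-fold and 1.23-fold, at 0.356 and 0.801 combined errors.

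All vimentin values came from around 1 cysteine. The 6 peptides, of 14 to 22 residues, were nested or overlapping pieces that shared a stretch of 8 residues with 1 cysteine, so they measured 1 site of the protein. The medians differed between these pieces. The 14-residue peptide gave 0.730, the 16-residue peptide 0.937 over 7 measurements, the 18-residue peptide 1.05, the 20-residue peptide 1.253, the 21-residue peptide 0.804 over 7 and the 22-residue peptide 1.35 over 8. The 16, 18 and 20-residue peptides did not start after a lysine or arginine, where trypsin cuts. The 21-residue peptide ran from 0.560 to 1.33 and the 22-residue peptide from 0.864 to 2.11, so their ranges overlapped. Why pieces around the same cysteine gave medians from 0.730 to 1.35 was not tested.

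**Figure D2:**
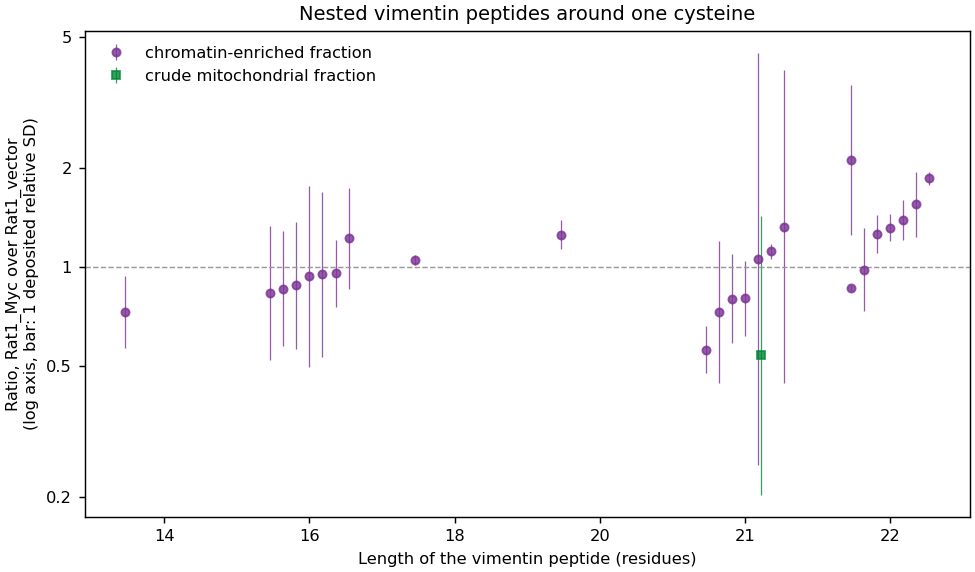
Each distinct measurement of vimentin by the length of its peptide (positions within a length are spread for legibility), as the ratio of Rat1_Myc over Rat1_vector on a log axis, with bars of 1 deposited relative SD. Chromatin-enriched values (circles) run from 0.560 to 2.11 around 1, and the single mitochondrial value (square) lies at 0.539.

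In the crude mitochondrial fraction the tubulins lay above 1 and vimentin below it. The relative errors ran from 5.05% for TBA1_ARATH to 97.2% for vimentin. TBA1_ARATH was higher, at 1.64 ± 0.083 on 1 peptide with 2 measurements of 1.57 ± 0.170 and 1.67 ± 0.755, and was the only one of 7 members to pass. Among all mitochondrial entries 18.4% passed, 10.9% higher and 7.46% lower. The other tubulins read 1.52 ± 1.13 for TBB5_MOUSE, 1.43 ± 0.383 for TBA1_MOUSE, 1.39 ± 0.264 for TBA4_HUMAN, 1.29 ± 0.792 for TBA3_ARATH and 1.28 ± 0.914 for TBA6_MOUSE. All 6 tubulin entries were above both 1 and the fraction median of 1.15, and 5 of them rested on a single peptide sequence. The median of the 7 members was 1.39.

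TBA1_MOUSE was the best measured of these, with 18 measurements from 0.741 to 2.96, a median of 1.39 and 14 above 1. Its 17-residue and 24-residue peptides gave like medians, 1.37 over 4 measurements and 1.39 over 14. TBB5_MOUSE had 7 measurements of the 19-residue peptide, 0.594, 0.642, 1.34, 1.52, 1.81, 1.99 and 3.43, which spanned 5.78-fold. Vimentin (VIME_MOUSE) had 1 line, at 0.539 ± 0.524, which ranked 13 from the lowest of 201 with 5.97% of entries below it. It was 2.37-fold to 3.05-fold below the 5 alpha entries and 2.83-fold below TBB5_MOUSE, yet at most 1.14 combined errors from any of them. Over all 3 fractions, 0 of 37 pairs of members within a fraction differed by the rule, and the widest gap was 1.81 combined errors. Some of these pairs had measurements in common, such as TBB2_HUMAN and TBB3_MOUSE in the chromatin-enriched fraction. The same share over pairs of all entries was not computed, so the count has no background beside it.

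**Figure D3:**
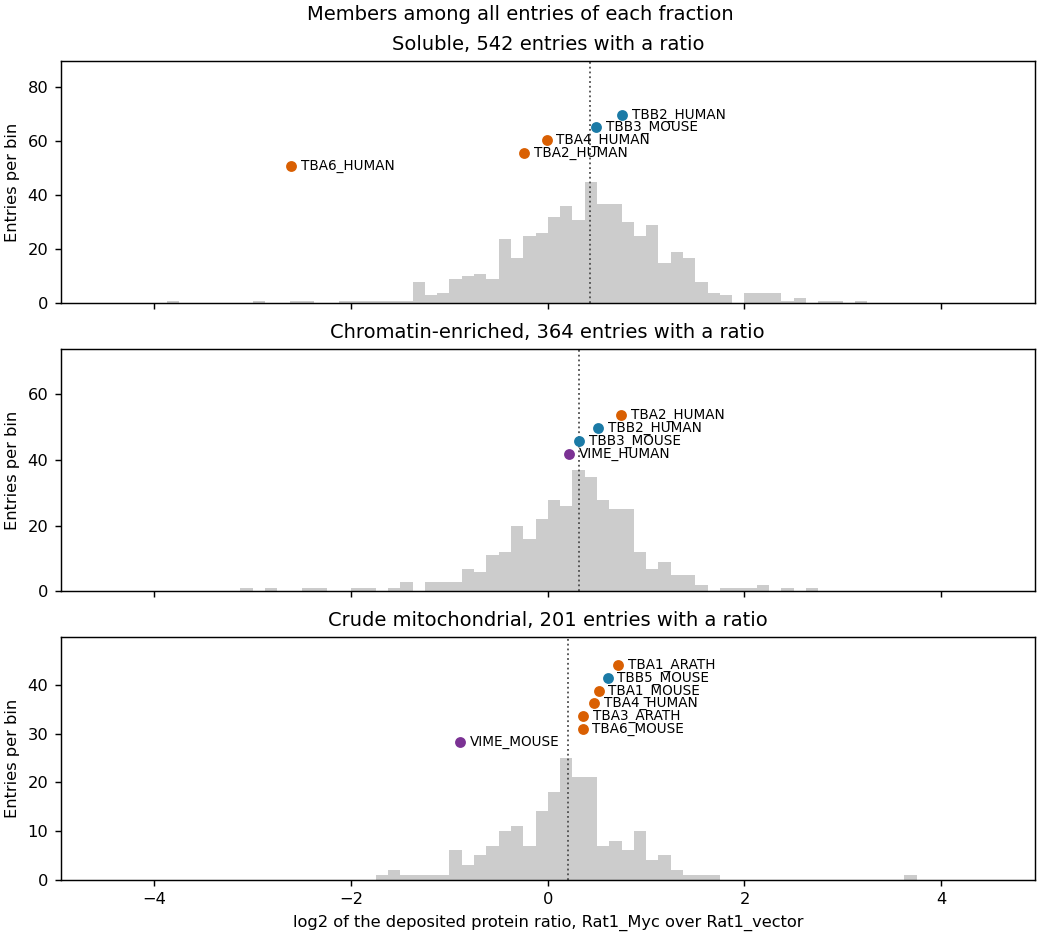
Histograms of the log2 protein ratio of all entries with a ratio in each fraction, with the members marked by dots at their own log2 ratio (their height carries no value) and the fraction median as a dotted line. Members lie within the bulk of each fraction except TBA6_HUMAN, which ranked 3 from the lowest of 542 soluble entries, and VIME_MOUSE, with 5.97% of mitochondrial entries below it.

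Relative to the median of its fraction, no member passed the rule: 0 of 16 were called higher or lower, beside 29.9%, 22.5% and 18.4% of all entries in the soluble, chromatin-enriched and mitochondrial fractions. Of all soluble entries 12.9% were higher and 17% lower on that scale, of chromatin-enriched entries 9.34% and 13.2%, and of mitochondrial entries 6.97% and 11.4%. Relative to the median TBB2_HUMAN was 1.254 in the soluble fraction, TBA2_HUMAN 1.35 in the chromatin-enriched fraction and TBA1_ARATH 1.42 in the mitochondrial fraction. The 3 calls were thus for ratios above 1 in fractions where most ratios were above 1. A centring step by the authors is not given in the sources used here.

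Of the 12 entries, 4 were found in more than 1 fraction and 0 in all 3. Joining entries by name, by name without the species and by an identical peptide gave 11 comparisons between fractions, and 0 differed by 1.5-fold with more than 2 combined errors. They lay 0.105 to 1.40 combined errors apart. Of the 11, 4 were joined by entry, 2 by name without the species and 5 by peptide, and some entries entered more than 1 comparison. Among all entries, joined by the same entry only, 21.1% differed between soluble and chromatin-enriched and 18.5% between soluble and mitochondrial. Between chromatin-enriched and mitochondrial 13% differed, a pair of fractions in which no member was joined by entry. These shares are thus like only the comparisons of members by entry. Among those 4 entries the gaps of the beta tubulins were the smaller ones: TBB2_HUMAN read 1.69 in the soluble and 1.43 in the chromatin-enriched fraction, and TBB3_MOUSE 1.41 and 1.246. The widest gap on the log2 scale was that of TBA6, from 0.164 in the soluble fraction (TBA6_HUMAN) to 1.28 in the mitochondrial fraction (TBA6_MOUSE).

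Identical peptides could be compared between fractions. The 24-residue alpha peptide had medians of 1.54, 1.598 and 1.39 in the soluble, chromatin-enriched and mitochondrial fractions, over 15, 6 and 14 measurements. The TBA2_HUMAN protein ratio, by contrast, was 0.846 in the soluble and 1.67 in the chromatin-enriched fraction. The 19-residue beta peptide of TBB3_MOUSE and TBB5_MOUSE had medians of 1.65, 1.30 and 1.52, and its equal-mass form in TBB2_HUMAN 1.54 and 1.45 in the soluble and chromatin-enriched fractions. The medians of all 3 peptides were above 1 in every fraction where they were measured.

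The 13-residue alpha peptides lay further apart between fractions. The form of TBA2_HUMAN and TBA1_ARATH had a median of 0.665 over 3 soluble measurements and of 1.62 over 2 mitochondrial ones, 2.43-fold apart at 1.71 combined errors. The form of TBA4_HUMAN had medians of 1.03 and 1.44, and the 24-residue form of TBA6 0.532 and 1.28. The ranges overlapped between the fractions for each of these peptides, but for both 13-residue forms only through lines with a question mark. Without those lines the soluble values were 0.628 and 0.665 for the TBA2_HUMAN form, against 1.57 and 1.67 in the mitochondrial fraction. The unmarked soluble values of TBA4_HUMAN ran from 0.560 to 1.19, against 1.29 and 1.59. For the 21-residue vimentin peptide they did not: the single mitochondrial value of 0.539 lay below the chromatin-enriched range of 0.560 to 1.33, at 0.409 combined errors from its median of 0.804.

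**Figure D4:**
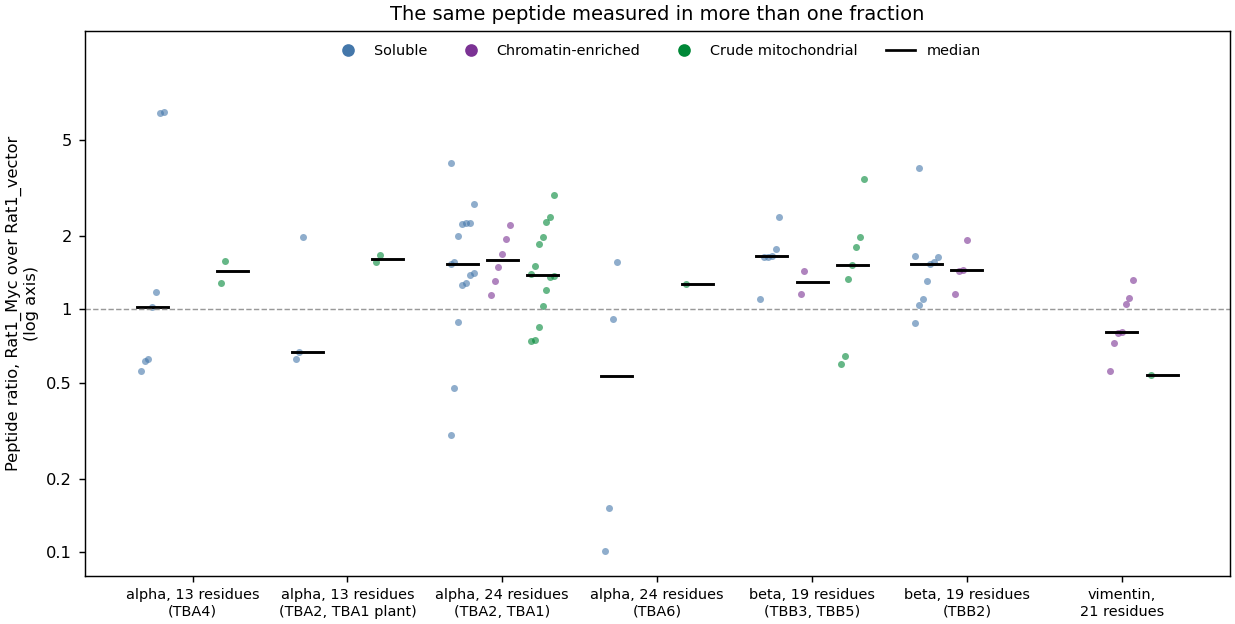
Distinct measurements (dots) and medians (bars) of the 7 member peptides measured in more than 1 fraction, as the ratio of Rat1_Myc over Rat1_vector on a log axis, coloured by fraction. The 24-residue alpha peptide has medians of 1.54, 1.598 and 1.39, while the 13-residue peptide of TBA2_HUMAN and TBA1_ARATH has 0.665 and 1.62.

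Some measurements were listed under more than 1 isotype. In the chromatin-enriched fraction both measurements of TBB3_MOUSE, 1.16 and 1.44, were also listed under TBB2_HUMAN, with the same SDs, on the I7L peptides of equal mass. They were 100% of the TBB3_MOUSE and 50% of the TBB2_HUMAN measurements there, so these beta entries are not separate evidence. In the soluble fraction the same entries shared 2 measurements, 1.64 and 1.66, which were 6.90% of those of TBB2_HUMAN and 8% of those of TBB3_MOUSE. With these included, 10 and 9 of the 29 soluble TBB2_HUMAN measurements lay on the equal-mass 17-residue and 19-residue peptides. For TBB3_MOUSE the numbers were 9 and 6 of 25. Mass does not tell the 2 entries apart on these peptides, so the soluble beta entries are separate evidence only in part. In the mitochondrial fraction the only value of TBA3_ARATH, 1.29, was also 1 of the 2 of TBA4_HUMAN. An entry outside the name rule, D25437, carried the 19-residue peptide of TBB2_HUMAN in the mitochondrial fraction. It was higher, at 1.66 ± 0.137, with 6 lines from 1.27 to 3.09, and shared 1 measurement with TBB5_MOUSE. For the shared measurements the files do not tell the isotypes apart.

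The measurements of 1 entry scattered to different degrees. Over entries with at least 4 distinct measurements, the median SD of log2 peptide ratios was 0.61 in the soluble, 0.44 in the chromatin-enriched and 0.58 in the mitochondrial fraction. TBA6_HUMAN had the widest scatter of 174 soluble entries, with an SD of 1.93. TBA4_HUMAN ranked 4 with 1.56, which was 0.49 without its marked lines. The ranks and the fraction median of 0.61 keep the marked lines of all entries, so the unmarked value is not on a like basis with them. TBB2_HUMAN ranked 11 with 1.33, which was 0.73 without its marked lines, and TBA2_HUMAN ranked 33 with 0.95. TBB3_MOUSE, at 0.45, was narrower than the median. The 3 such members of the chromatin-enriched fraction were at or under the median: 0.44 for VIME_HUMAN, 0.36 for TBA2_HUMAN and 0.30 for TBB2_HUMAN. In the mitochondrial fraction TBB5_MOUSE had 0.90 and TBA1_MOUSE 0.59.

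**Figure D5:**
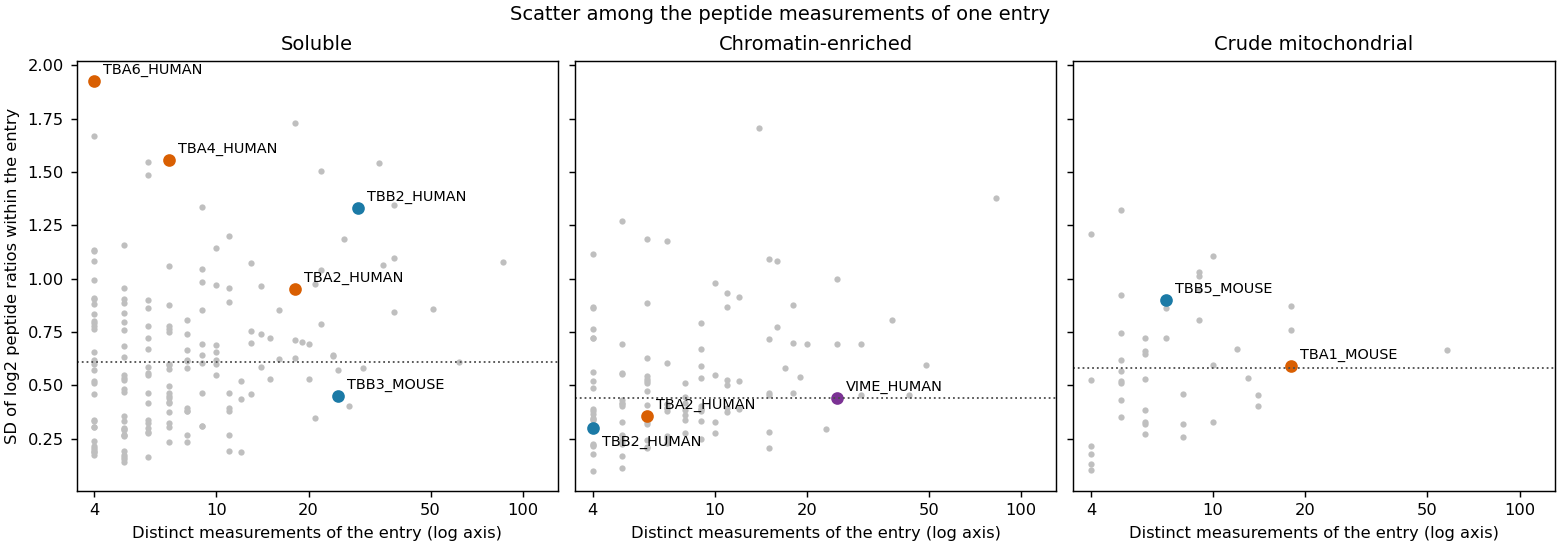
SD of the log2 peptide ratios within an entry against its number of distinct measurements (log axis) for every entry with at least 4, members in colour and named, other entries in grey, and the fraction median as a dotted line. TBA6_HUMAN, TBA4_HUMAN and TBB2_HUMAN lie high in the soluble fraction with lines that carry a question mark included (without them TBA4_HUMAN is at 0.49 and TBB2_HUMAN at 0.73), and the members of the chromatin-enriched fraction at or below 0.44.

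The chemical form in which a peptide was identified did not order the member ratios 1 way. Identification by the heavy form could be set against the light form in 19 cases of 1 peptide, entry and fraction. The heavy median was higher in 7, lower in 11 and equal in 1, with a median quotient of 0.962. A measurement identified in both forms entered both medians, which pulls the heavy and light medians together. The 16-residue vimentin peptide, for example, had 5 heavy and 7 light values from 7 distinct measurements. Oxidised against unoxidised methionine gave 4 higher and 7 lower of 11, with a median quotient of 0.966. The lowest heavy quotient was that of TBA6_HUMAN in the soluble fraction, where 3 heavy values had a median of 0.152 against a single light value of 1.57. Next was soluble TBA4_HUMAN, with 0.623 over 3 heavy and 3.73 over 4 light values. Its light values include 6.43 and 6.49 on lines with a question mark. Few values did not always give an extreme quotient: TBB2_HUMAN in the chromatin-enriched fraction, with 3 heavy and 1 light, was at 0.990. The number of peptides that the authors deposited equalled the count of sequences with oxidised forms taken apart in 16 of 16 members, so TBA6_HUMAN, listed with 2 peptides, rested on 1 sequence.

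Proteins that fold, bind or move along these polymers were read from a list of entry names, and 25 entries of it were found in the tables. The list is not complete. By general knowledge of the names, ACF7_HUMAN and ACTY_HUMAN belong with them but fall outside it. ACF7_HUMAN was lower in the chromatin-enriched fraction, at 0.437 ± 0.037, beside 7.42% lower among all entries there. ACTY_HUMAN had 0.764 ± 0.134 in the soluble fraction and was not called. In the soluble fraction 5 of 10 entries of the TCP-1 chaperonin, which folds new tubulin chains, were higher and 0 lower, beside 30.6% higher and 8.12% lower among all soluble entries. Their median was 1.73, and 9 lay above the fraction median. TCPG_HUMAN was the highest at 2.72 ± 0.772, followed by TCPQ_HUMAN at 2.47 ± 0.345 and TCPH_MOUSE at 2.12 ± 0.375. TCPE_MOUSE at 1.78 ± 0.319 and TCPD_HUMAN at 1.68 ± 0.287 passed too, and TCPH_HUMAN was the lowest at 1.17 ± 0.430. The chaperonin is a complex of several kinds of subunit, and both TCPE and TCPH appeared under a human and a mouse name. The 10 entries thus stand for fewer subunits. For TCPE and TCPH the mouse entry, listed with 1 peptide, passed and the human entry did not. TCPE_HUMAN had 1.86 ± 1.14 and was listed with 2 peptides, and TCPH_HUMAN was listed with 5. Relative to the fraction median 3 of the 10 were higher, beside 12.9% of all soluble entries.

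In the chromatin-enriched fraction 1 of 3 chaperonin entries was higher, TCP1_MOUSE at 2.74 ± 0.411, beside 20.3% of all entries there, and the lowest was TCPH_HUMAN at 0.991 ± 0.286. All 3 were listed with 1 peptide each. In the mitochondrial fraction 0 of 7 were called, beside 18.4% of all entries, from 1.01 ± 0.375 for TCPG_MOUSE to 1.55 ± 1.20 for TCPH_MOUSE. In the soluble fraction 2 of 3 chains of dynein, the motor that runs toward the minus end of microtubules, were higher: DYI1_HUMAN at 3.27 ± 0.844 and DYHC_MOUSE at 1.74 ± 0.429, with DYL1_HUMAN at 1.51 ± 0.345. Each of these dynein entries was listed with 1 peptide. Among all soluble entries 30.6% were higher, and relative to the fraction median only DYI1_HUMAN of the 3 was called. In the mitochondrial fraction kinesin (KINH_MOUSE), which runs toward the plus end, had 0.741 ± 0.170, and the microtubule-binding MAPB_MOUSE had 0.808 ± 0.340. Both were also listed with 1 peptide.

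Relatives and linkers of vimentin did not pass the rule. In the chromatin-enriched fraction the nuclear lamins, intermediate filament proteins under the nuclear envelope, had 1.06 ± 0.073 (LAM1_HUMAN) and 0.865 ± 0.38 (LAMA_HUMAN). Plectin, which links filaments to other structures, had 1.18 ± 0.697 (PLE1_HUMAN). With vimentin at 1.16 ± 0.118, all of these lay below the fraction median of 1.24, and 0 of the 3 were called, beside 27.7% of all entries there. In the mitochondrial fraction LAMA_MOUSE had 1.16 ± 1.37.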

How the data were processed

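Per the labels, the authors tagged vector protein with light and Myc protein with heavy ICAT reagent, digested the mixture with trypsin and analysed it by tandem mass spectrometry. Also per the labels, spectra were searched against a rat, mouse and human database, scored with PeptideProphet and ProteinProphet, and quantified with ASAPRatio. The 2 member entries with the suffix ARATH lie outside those species. They were kept as deposited, and how they entered is not given in the sources used here. Versions are not given in the sources used here, and no genome build was needed. Each deposited line names a peptide, its linear ratio with SD, and the ratio of its protein. The legend gives 3 codes for peaks that were not detected, and such lines were left out.

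The members and lists were chosen with earlier results of these data known. Every member entry is named, and of the partner list the changed entries and the highest and lowest of each role. TCPE_HUMAN and, from outside the list, ACF7_HUMAN and ACTY_HUMAN are named as well. Their names are read from Swiss-Prot entry names by general knowledge. The error of a ratio is SD over ratio on the natural log scale. With 1 mixture per fraction there is no test and no p-value, and the precision is limited by the number of peptide measurements. Equal-mass peptides were matched within 0.001 Da. Alternatives changed the fold, the error, the centring, the peptide number, the probability, the merging of entries and the protein summary. Python 3.11.15, numpy 2.4.6, pandas 2.3.3 and matplotlib 3.10.9 were used.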

Additional observations from a re-analysis of the deposited data

Results flagged for a closer look

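Joined by entry or by name without the species, 4 members lay on opposite sides of 1 in different fractions, and the difference was not tested, since each fraction is 1 mixture. TBA6 was 2.96 log2 units higher in the mitochondrial (TBA6_MOUSE) than in the soluble fraction (TBA6_HUMAN), at 1.40 combined deposited errors. TBA2_HUMAN was 0.98 log2 units higher in the chromatin-enriched than in the soluble fraction, at 1.23 combined errors. TBA4_HUMAN was 0.49 log2 units higher in the mitochondrial than in the soluble fraction, at 1.07 combined errors. For vimentin the difference of the mitochondrial (VIME_MOUSE) minus the chromatin-enriched fraction (VIME_HUMAN) was -1.11 on the log2 scale, at 0.788 combined errors.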

How the results depend on the processing

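No paired analysis was possible because each fraction was 1 mixture. The count of changed soluble members was 1, and was 2 at a lower fold threshold, at 1 error (with TBA6_HUMAN lower), or with the median of all or of unmarked peptide ratios, and 0 at a fold of 2 or relative to the fraction median. The chromatin-enriched count went from 1 to 0 at a fold of 2 and relative to the fraction median. The mitochondrial count went from 1 to 0 under both of these, with at least 2 peptides per entry, and with entries of 1 name merged over species. The median soluble member ratio was 0.992 as deposited, 0.738 relative to the fraction median, and 1.47 with the median of all or of unmarked peptide ratios. The chromatin-enriched median went from 1.34 to 1.076 relative to the fraction median. The mitochondrial median of 1.39 ran from 1.20 relative to the fraction median to 1.48 with at least 2 peptides, within the 61.6% median deposited error of its members. The count of differences between fractions was 0 under each of the 3 alternatives run. Leaving out marked lines and merging equal-mass entries were added after seeing the data. The number of measurements, 1 for some entries, limits every ratio.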
